A study of Mus musculus with 9 samples.

Results

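The beta subunits of the sodium pump were followed here by their genes Atp1b1, Atp1b2 and Atp1b3, chosen by name, which are 3 of the 18634 genes of the count table. At ZT12, the time of lights off, the brainstem, cortex and hypothalamus were taken from wild-type C57BL/6 J mice aged 9 to 11 weeks. The mice belonged to a normal sleep (NS) group, a group sleep deprived for 12 h (SD) or a recovery sleep (RS) group that was first deprived for 12 h. Recovery is given as 24 h in 1 place of the labels and as 12 h in another. Cells of 3 mice were pooled for each of the 9 combinations of region and group, so each combination is 1 single-cell library with no replicate. The tissue was dissociated with papain and passed over myelin removal beads. The table holds 29571 cells in 9 libraries of 2575 to 3916 cells and 1522766 to 5488950 unique molecular identifiers (UMIs), the tags that let each captured transcript be counted once. Of the 29015 distinct barcodes, 1.89% occurred in more than 1 library. Only library 7 could be tied to a sample, brainstem NS, because it alone held all 1999 barcodes that the study lists for that sample with a cell type. The other 8 libraries are given by number. The study's list of cells was held here only in part, with cells of brainstem NS alone, and no other source used here ties these libraries to a region or a sleep group. No sleep comparison was made. Levels are UMIs summed over cells and scaled to CPM, a count relative to the total of the same cells. Intervals are exact 95% intervals for counting error only, Poisson for levels and Clopper-Pearson for shares of cells.

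The sodium pump, or Na,K-ATPase, uses ATP to move sodium out of a cell and potassium in, and so keeps up the gradients that neurons spend when they fire and that astrocytes use to clear potassium and glutamate. A working pump pairs a catalytic subunit, which binds ATP and the ions, with a glycosylated beta subunit, which brings the catalytic one to the membrane and tunes its affinity for ions. A small FXYD protein may join as a regulator. The beta 2 subunit, encoded by Atp1b2, is also known as an adhesion molecule on glia.

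In mouse build GRCm38 the 3 genes lie on different chromosomes, each on the minus strand. Atp1b1 (ENSMUSG00000026576) lies at chr1:164437109-164458355 and has 6 exons in its principal transcript. Atp1b2 (ENSMUSG00000041329) lies at chr11:69599736-69605942 and has 7 exons. Atp1b3 (ENSMUSG00000032412) lies at chr9:96332655-96364442 and also has 7 exons. Atp1b1 is overlapped by 1 annotated gene on the opposite strand, and the other two by 0 genes.

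In the brainstem NS library the 3 genes led in different cells. Atp1b1 was highest in the cells listed as glutamatergic neurons, Atp1b2 was highest in astrocytes, and Atp1b3 was spread over many types with no type clearly ahead. The study typed the cells from their whole profiles, which include these genes, so the levels by type are a description. Before these levels are given, the labels were set against marker genes. Astrocytes, ependymocytes (EPC), endothelial cells, macrophages, microglia, pericytes, arterial smooth muscle cells (VSMCA) and hemoglobin-expressing vascular cells (HbVC) each had every marker of their own list at its highest level. Other lists were also at their highest in some of these cells. Pericyte-labelled cells held all 8 fibroblast or leptomeningeal markers, summed to 9626 CPM, and HbVC held all 5 neutrophil markers, summed to 10692 CPM. The 43 cells listed as oligodendrocytes matched their label in part. Cldn11, a tight junction gene of the myelin list, had 63 UMIs in 22 of the 43 cells, at 727 CPM, and was also among the leading genes of a fibroblast or leptomeningeal-like cluster. Mbp, a gene of the myelin sheath, had 1 UMI, while Mobp, Mag, Ermn and Cnp had 0. These cells also carried Dcn at 508 CPM and Apod at 912 CPM, 2 markers of the fibroblast list, and 39 of the 43 fell in clusters named fibroblast or leptomeningeal-like. They are called the oligodendrocyte-labelled cells below. Of the 55 cells listed as glutamatergic neurons, 12 had a UMI of Slc17a6 and 5 of Slc17a7, the vesicular glutamate transporters, while 7 had Gad1 and 6 had Gad2, which make GABA. In all, 43 of these 55 cells fell in neuron-like clusters.

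Atp1b1 encodes the beta 1 subunit, the most widespread partner of the catalytic chains. Its level in the 55 glutamatergic-labelled neurons was 6292 CPM (interval 5631 to 7009), from 330 UMIs. The 18 other neurons came next at 1392 CPM (999 to 1889), and the ratio of the first to the second was 4.52 (3.26 to 6.42). The oligodendrocyte-labelled cells followed at 796 CPM (620 to 1008), an interval that overlaps that of the other neurons. The ratio of the other neurons to them was 1.75 (1.16 to 2.61). VSMCA were at 308 CPM (249 to 377), clear of the types above and below them. The remaining 7 types ran from 82.2 CPM in EPC down to 22.7 CPM in HbVC, and each overlapped its neighbour in that order. The HbVC level rests on 1 UMI, and their own marker list took 690447 CPM of their total. With a total that leaves out mitochondrial and hemoglobin genes, Gh and Malat1, HbVC were at 86.5 CPM. EPC were then at 97.0 CPM, pericytes at 81.0 CPM and macrophages lowest at 26.6 CPM. Against all other listed cells, which were at 138 CPM, Atp1b1 ranked at place 21 of 5703 genes in the glutamatergic-labelled neurons. Of those 5703 genes, 10.2% were at least 2 times as high there, after 10 CPM were added to both sides.

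Almost every glutamatergic-labelled neuron carried the transcript. A UMI of Atp1b1 was found in 53 of 55 cells, or 96.4% (87.5 to 99.6), at a median depth of 718 UMIs per cell. In microglia, which were read to a median of 796 UMIs, the share was 4.19%. It is given as a comparison level for background, and the source of those UMIs was not tested. After each cell was thinned to 500 UMIs, the shares were 83.6% and 1.48%. The neurons differed among themselves, with a median of 4 UMIs of Atp1b1 per cell, quartiles of 2 and 7.5 and a highest value of 56. Without the cell with 56 UMIs the level was 5525 CPM and the ratio to the other neurons 3.97. The summed level of the neuron marker list did not follow Atp1b1: it was 6426 CPM in the glutamatergic-labelled cells and 23940 CPM in the other neurons, a type whose level was led by Meg3 at 14466 CPM.

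Atp1b2 encodes the beta 2 subunit, long associated with glia. In the 188 astrocytes it reached 1565 CPM (1382 to 1765), from 266 UMIs. Pericytes, the mural cells of capillaries, came next at 460 CPM (357 to 583), and the ratio of astrocytes to pericytes was 3.40 (2.60 to 4.51). In cells with at least 1000 UMIs that ratio was 5.54. VSMCA were at 308 CPM, the other neurons at 306 CPM, the glutamatergic-labelled neurons at 210 CPM and EPC at 141 CPM. From pericytes to EPC the interval of each overlapped that of its neighbour, while the ratio of pericytes to VSMCA was 1.49 (1.08 to 2.06). EPC were clear of endothelial cells, which were at 47.8 CPM (32.5 to 67.9). Below them, macrophages, microglia and the oligodendrocyte-labelled cells ran from 24.1 to 11.54 CPM, and HbVC had 0 UMIs, for which 3 counts would be 68.2 CPM and the exact interval ends at 83.9 CPM. Atp1b2 ranked at place 63 of 5703 genes in astrocytes against the other listed cells, and 8.7% of those genes were at least 2 times as high.

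A UMI of Atp1b2 was found in 129 of 188 astrocytes, or 68.6% (61.5 to 75.2), against 1.09% of microglia, and in 49.7% and 0.738% after thinning. The share was 32.1% in pericytes and 31.7% in VSMCA. In those vascular types the astrocyte marker list was low. Its summed level was 379 CPM in pericytes, with 8 of 9 markers found, and 179 CPM in VSMCA, with 9 of 9 found, against 18202 CPM in astrocytes. The source of the Atp1b2 UMIs in these vascular types was not tested. Of the 168 cells listed as pericytes, 117 fell in pericyte-like clusters and 48 in fibroblast or leptomeningeal-like ones. Atp1b2 was at 585 CPM (433 to 774) in the first, from 49 UMIs, and at 239 CPM (134 to 395) in the second, from 15 UMIs.

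Atp1b3 encodes the beta 3 subunit and had the flattest pattern. The oligodendrocyte-labelled cells were highest at 231 CPM (141 to 357), from 20 UMIs, and the glutamatergic-labelled neurons next at 191 CPM (91.4 to 351). Their ratio of 1.21 had an interval of 0.541 to 2.90, so the order of the 2 types was not detectable at this depth. Endothelial cells were at 179 CPM (148 to 215), from 116 UMIs, and EPC, pericytes, macrophages and microglia ran from 158 down to 103 CPM. Among the pericyte-labelled cells, Atp1b3 was at 239 CPM (134 to 395) in the 48 of fibroblast or leptomeningeal-like clusters, from 15 UMIs, and at 83.6 CPM (33.6 to 172) in the 117 of pericyte-like clusters, from 7 UMIs. Every neighbour in the order overlapped. The ends of the order were apart, since endothelial cells exceeded astrocytes, at 52.9 CPM, by 3.38 times (1.72 to 7.57) and VSMCA, at 22.7 CPM, by 7.87 times (3.70 to 20.02). The list also holds 1 cell of unknown type, with 0 UMIs of each gene. The 1732 cells of the library that are not on the list had 248 CPM of Atp1b1, 191 CPM of Atp1b2 and 93.3 CPM of Atp1b3, against 282, 229 and 124 CPM in the listed cells. On this full total the intervals overlapped for Atp1b1 alone. With a total that leaves out mitochondrial and hemoglobin genes, Gh and Malat1, the levels were 349, 269 and 132 CPM against 352, 287 and 154 CPM. In the oligodendrocyte-labelled cells against the others, 4.84% of 5703 genes were at least 2 times as high, and Atp1b3 was not among them.

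**Figure D1:**
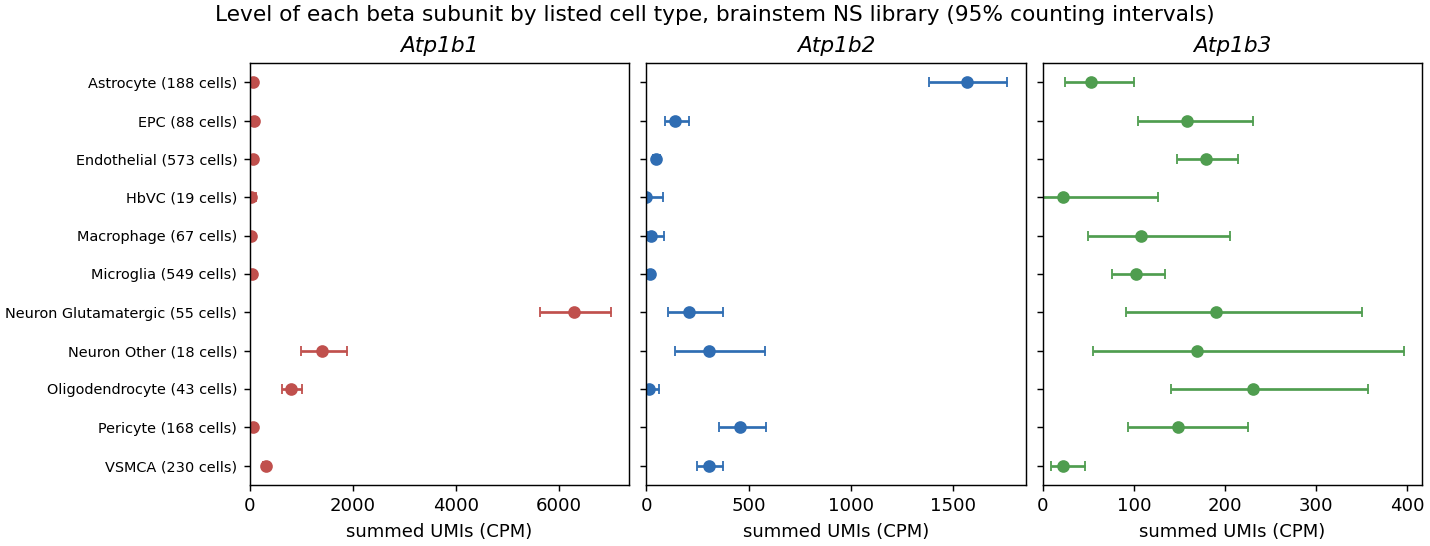
Summed UMIs of each gene in CPM (horizontal axis, linear, own range per panel) for the 11 listed cell types of the brainstem NS library with at least 10 cells; points are levels and bars exact 95% Poisson intervals. Atp1b1 stands at 6292 CPM in glutamatergic-labelled neurons and Atp1b2 at 1565 CPM in astrocytes, while the intervals of Atp1b3 overlap across most types.

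Because capture can differ between genes, the make-up of the beta subunit UMIs was compared between types and not between genes. Atp1b1 made up 94.0% (91.0 to 96.3) of the UMIs of the 3 genes in glutamatergic-labelled neurons and 3.51% (1.70 to 6.36) in astrocytes. In the other neurons it made up 74.5% (61.0 to 85.3) of 55 UMIs, with 16.4% Atp1b2 and 9.09% Atp1b3. The oligodendrocyte-labelled cells were like them, with 76.7% (66.6 to 84.9) Atp1b1 of 90 UMIs. Atp1b2 made up 93.3% (89.8 to 95.9) in astrocytes and 68.7% (58.6 to 77.6) in pericytes. VSMCA were mixed, with 48.2% each for Atp1b1 and Atp1b2 and 3.55% for Atp1b3. Atp1b3 took its greatest shares in macrophages, at 69.2% (38.6 to 90.9) of 13 UMIs, in endothelial cells, at 62.7% (55.3 to 69.7), and in microglia, at 60.5% (49.3 to 70.8) of 86 UMIs. EPC divided their UMIs among all 3, with 21.5% Atp1b1, 36.9% Atp1b2 and 41.5% Atp1b3.

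**Figure D2:**
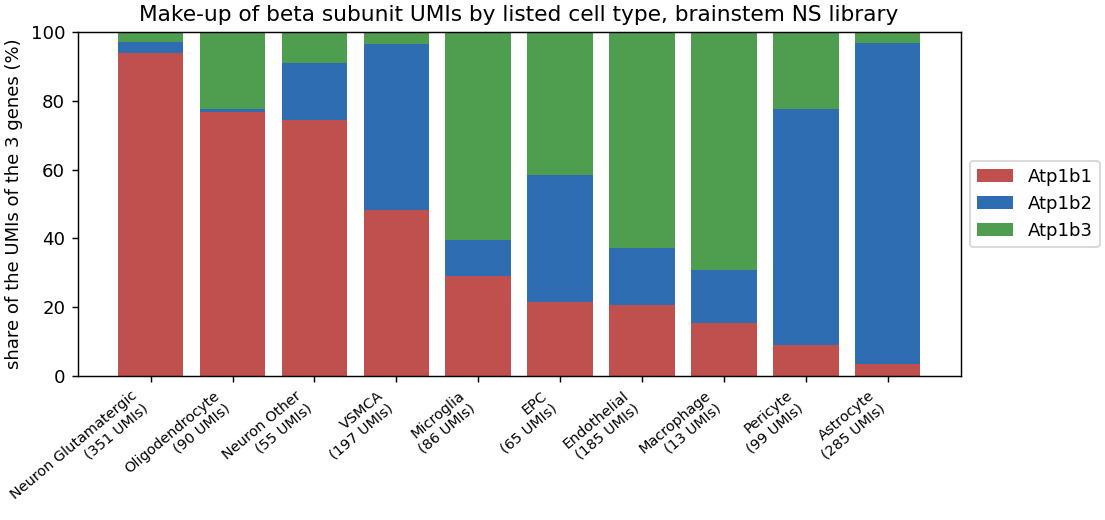
Share in percent of each gene among the summed UMIs of Atp1b1, Atp1b2 and Atp1b3 (vertical axis) for the listed types of the brainstem NS library with at least 10 such UMIs, whose number is under each bar. Glutamatergic-labelled neurons are nearly all Atp1b1 (94.0%), the other neurons less so (74.5%), astrocytes nearly all Atp1b2 (93.3%), and endothelial cells mostly Atp1b3 (62.7%). The share of Atp1b3 is 69.2% in macrophages and 60.5% in microglia, with intervals of 38.6 to 90.9 and 49.3 to 70.8.

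Within single cells the same split was seen as far as the depth allowed. Among the 188 astrocytes, 116 had UMIs of Atp1b2 alone, 5 of Atp1b1 and Atp1b2, 7 of Atp1b2 and Atp1b3, 1 of all 3 and 56 of none. Among the 55 glutamatergic-labelled neurons, 35 had Atp1b1 alone, 8 had Atp1b1 and Atp1b2, 9 had Atp1b1 and Atp1b3, 1 had all 3 and 2 had none. In VSMCA, 24 of 230 cells carried both Atp1b1 and Atp1b2, or 10.4% (6.80 to 15.1). Shallow cells miss transcripts, so a cell with 1 of the 3 may still express another.

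Of the 7 FXYD genes, 3 passed 20 UMIs in the listed cells. Fxyd1, which encodes phospholemman, a pump regulator of muscle, was highest in VSMCA at 1380 CPM, followed by astrocytes at 953 CPM and pericytes at 507 CPM. Fxyd5, which encodes dysadherin, was highest in the oligodendrocyte-labelled cells at 854 CPM, followed by macrophages at 434 CPM and endothelial cells at 254 CPM. Fxyd6 was highest in the other neurons at 238 CPM, from 7 UMIs, and next in the glutamatergic-labelled ones at 153 CPM, from 8 UMIs. Their ratio of 1.56 (0.481 to 4.92) gave no detectable order at this depth. Of the 4 Nkain genes, whose products interact with the pump, 1 passed. This was Nkain4, at 965 CPM in astrocytes and 112 CPM in EPC, with a ratio of 8.65 (5.37 to 14.7). The related proton pump genes Atp4a and Atp12a had 0 UMIs.

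Of 14 genes for transport that draws on the sodium gradient or handles potassium, 11 passed 20 UMIs, and 8 of those were highest in astrocytes. Of all 9483 genes with that many UMIs, 9.41% were highest in astrocytes. The lead over the next type was beyond counting error for 7 of the 8, and for Slc9a3r1, which encodes a scaffold protein of transporters, it was 1.16 times (0.658 to 2.07). The 8 include the glutamate transporters Slc1a2, at 2153 CPM in astrocytes and 153 CPM in the next type, and Slc1a3, at 1753 and 166 CPM. The GABA transporter Slc6a11 was at 1959 and 57.2 CPM, and the sodium bicarbonate transporter Slc4a4 at 1206 and 185 CPM. The potassium channel gene Kcnj10 was at 359 CPM in astrocytes and 123 CPM in EPC. Neurons led 2 of the 11, among them Slc12a5, the neuronal chloride exporter, at 744 CPM in glutamatergic-labelled neurons. Its ratio to the other neurons was 1.56 (0.831 to 3.12), so which of the neuron types led was not detectable at this depth. All 4 membrane partners of astrocytes (Mlc1, Hepacam, Aqp4, Gja1) were highest in astrocytes and passed the minimum, with a lead beyond counting error for 3 of them and a ratio of 1.39 (0.958 to 2.02) for Mlc1. Some of these genes are also astrocyte markers, and their order was not used as support for that of Atp1b2.

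The genes whose levels over types were most like each member were found by Pearson's r of log2(CPM + 10) over the 8 types with at least 50 listed cells, among 1616 genes with at least 200 UMIs. The points share 1 library, and r is a description. For Atp1b1 these were Scg2 (r = 0.93), Dynll2 (0.92), Rtn1 (0.91), Clstn1 (0.89) and Nptn (0.87), all highest in glutamatergic-labelled neurons. For Atp1b2 they were Plpp3 (0.95), Ndrg2 (0.95), Sparcl1 (0.90) and Sdc2 (0.89). The first 3 of these were highest in astrocytes, and Sdc2 was highest in pericytes at 385 CPM. For Atp1b3 they were Ddrgk1 (0.95), Sdf4 (0.86), Pdia3 (0.86), Stmn1 (0.83) and Cdc26 (0.82), which peaked in endothelial cells, glutamatergic-labelled neurons or microglia.

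To follow the genes beyond 1 library, all cells were clustered together without the pump genes and clusters were named from marker genes, with "-like" added to each name. Classes were used in each library where they had at least 20 cells, and the libraries are not replicates of a condition. In bulk or in a whole library, fewer cells of a type and less RNA per cell cannot be told apart, so levels within a class are given first.

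Atp1b1 was highest in neuron-like cells in all 9 libraries. From library 1 to library 9 its level there was 1704, 1815, 1578, 1284, 1409, 1299, 4201, 3235 and 2663 CPM. Every value lay above that of every other class of the same library, among classes present in at least 5 libraries. Fibroblast or leptomeningeal-like cells came next with a median of 365 CPM (range 146 to 799), and the ratio of the medians was 4.67, with ratios of 1.98 to 13.2 in single libraries. VSMCA-like cells had a median of 329 CPM over 8 libraries and endothelial-like cells one of 78.0 CPM over 9. Fibroblast or leptomeningeal-like cells exceeded VSMCA-like cells in 4 of the 8 libraries with both, so their order was not steady.

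The neuron-like class was made of different clusters in different libraries, and the 2 with the most cells are given here. A cluster led by Nrgn, Slc17a7 and Camk2a had at least 20 cells in libraries 1, 2 and 3, where it was at 1624, 1770 and 1567 CPM of Atp1b1. A cluster led by Avp, Oxt, Sst, Npy and Gad1 had them in all 9, at 3780, 3585, 2988, 1312, 1415, 1304, 4241, 3269 and 2701 CPM. In libraries 1, 2 and 3, which held both, this cluster was the higher in each. Markers of pituitary endocrine cells moved with its low values: their summed level in neuron-like cells was 21263 to 60798 CPM in libraries 4, 5 and 6 and at most 712 CPM in the others. In those libraries Gh, the growth hormone gene, took 25.3%, 27.9% and 32.1% of the UMIs of all cells together, not of neuron-like cells. The part of these transcripts in the lower Atp1b1 level of neuron-like cells was not tested.

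Atp1b2 was highest in astrocyte-like cells in all 9 libraries, at 811, 1223, 1073, 1474, 1406, 418, 1604, 1801 and 1272 CPM from library 1 to library 9. Library 6 had the lowest value and the fewest cells of the class, 26, with 12 UMIs of the gene. Those 26 cells also carried 147809 CPM of pituitary endocrine markers and 9240 CPM of the astrocyte list, against 34880 and 58649 CPM of the pituitary list in libraries 5 and 4, at most 107 CPM of it in the others, and 13897 to 25072 CPM of the astrocyte list in the other 8. The part of these markers in the low value was not tested. The class was made of different clusters in different libraries. A cluster led by Htra1, Pantr1 and Btbd17 held 43.7%, 50.3% and 87.1% of it in libraries 1, 2 and 3, with Atp1b2 at 970, 1299 and 1140 CPM. A cluster led by Gstm5, Htra1 and Aldoc held 51.4%, 42.9% and 6.32% there, at 640, 1272 and 767 CPM. A cluster led by Agt, Slc6a11 and Itih3 held 74.2% to 92.5% in libraries 4, 5, 7, 8 and 9, at 1395 to 1898 CPM. In libraries 1 and 2 it was at 787 and 965 CPM, from 8 UMIs each. A further cluster, led by Fgfr3, Slc7a10 and Slc39a12, was at 490 to 831 CPM in 5 libraries. Levels of the class in libraries 1 to 3 and in those 5 libraries thus come mostly from different clusters. VSMCA-like cells had the next median, 255 CPM (206 to 460), and pericyte-like cells followed at 232 CPM (66.0 to 360). VSMCA-like cells were the higher in 6 of 8 libraries, with an interval above that of pericyte-like cells in 0. Among the listed cells of library 7, pericytes were the higher. The ratio of the medians of astrocyte-like to VSMCA-like cells was 4.99, and in the 8 libraries with both classes it ran from 2.12 to 8.73. In each of those 8 the intervals of the 2 classes did not overlap. Pericyte-like cells were of 2 clusters. In library 7 the one led by Atp13a5, Kcnj8 and Vtn was at 536 CPM (429 to 662) and the one led by Rgs5 and Abcc9 at 182 CPM (122 to 262). In library 9 they were at 410 CPM (277 to 586) and 187 CPM (138 to 249), and in library 8 at 377 CPM (278 to 499) and 232 CPM (165 to 317), where the intervals overlapped. Library 1 had 508 CPM (187 to 1106) and 212 CPM (57.8 to 544), from 6 and 4 UMIs. In library 2 the order was the other way, at 95.3 CPM (2.41 to 531) and 228 CPM (109 to 419), from 1 and 10 UMIs. The intervals overlapped in both.

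Atp1b1 in astrocyte-like cells ranged from 52.0 to 334 CPM with a median of 100.4 CPM, and in microglia-like cells from 68.6 to 474 CPM. By cluster, it was at 317 to 353 CPM in the astrocyte-like cluster led by Htra1, Pantr1 and Btbd17, of libraries 1 to 3. In the cluster led by Agt, Slc6a11 and Itih3 it was at 23.03 to 111 CPM in libraries 4, 5, 7, 8 and 9, and at 197 and 362 CPM in libraries 1 and 2, from 2 and 3 UMIs. The highest microglia-like values were 236, 474 and 427 CPM in libraries 1, 2 and 3. Neuron-like cells held 44.3%, 47.8% and 61.8% of all UMIs in those libraries, and at most 12.0% in any other. The neuron marker list summed to 2367, 5028 and 5108 CPM in their microglia-like cells, and to 191 to 514 CPM in those of libraries 7, 8 and 9. It summed to 3284 to 6049 CPM in libraries 4, 5 and 6, where microglia-like cells also carried 168383, 187361 and 379375 CPM of pituitary endocrine markers. Pituitary endocrine-like cells had 4567 to 6737 CPM of the neuron list themselves in these libraries, and whether the list stands for neuronal RNA there was not tested. The part of free neuronal RNA in the Atp1b1 values of libraries 1, 2 and 3 was not tested.

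Atp1b3 was highest in fibroblast or leptomeningeal-like cells in all 9 libraries, at 234, 248, 236, 344, 469, 379, 285, 395 and 322 CPM. Endothelial-like cells were next, with a median of 166 CPM (102 to 262), and the ratio of the medians was 1.94. The fibroblast or leptomeningeal-like value was the higher in 9 of 9 libraries, with ratios of 1.41 to 2.93, but the intervals were apart in only 3 of them, and the first 3 libraries had 6, 8 and 13 UMIs behind their values. The lowest medians were 57.7 CPM in astrocyte-like and 48.5 CPM in VSMCA-like cells. The brainstem NS cells labelled oligodendrocytes, which led for Atp1b3 among the listed types, lie mostly in this class.

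**Figure D3:**
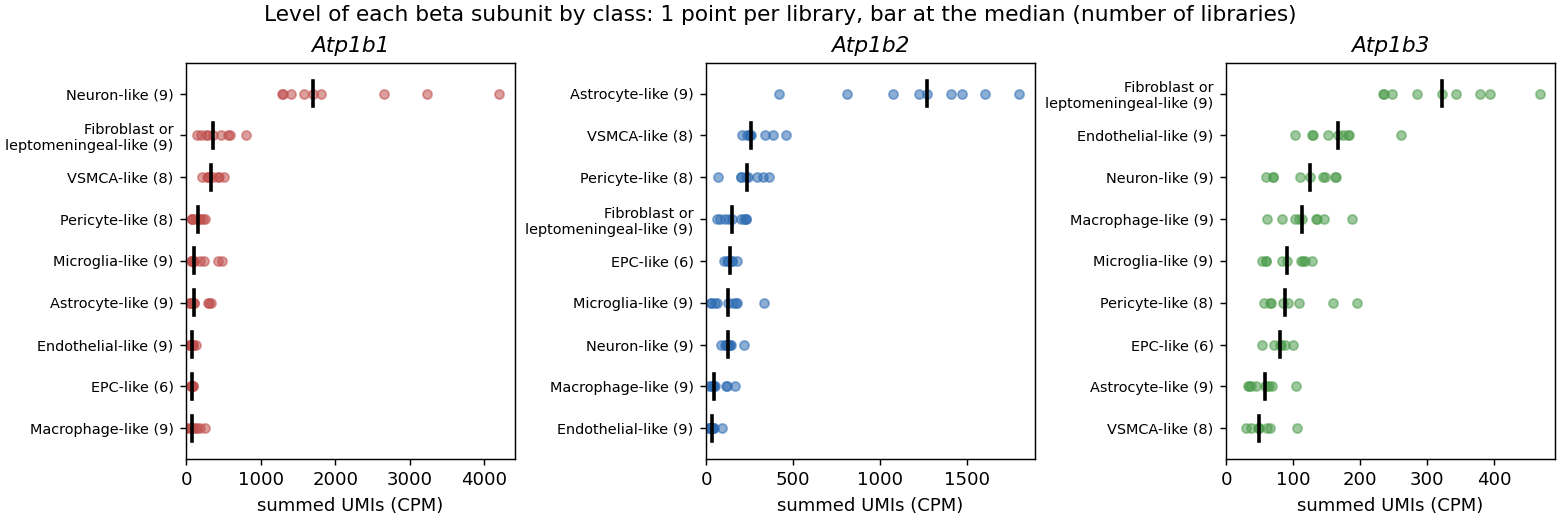
Summed UMIs of each gene in CPM (horizontal axis, linear, own range per panel) by class, for classes with at least 20 cells in 5 or more libraries; each point is a library and the black bar the median over libraries. Neuron-like cells lead for Atp1b1 (median 1704 CPM), astrocyte-like cells for Atp1b2 (1272 CPM) and fibroblast or leptomeningeal-like cells for Atp1b3 (322 CPM).

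The make-up was then set out by class. In neuron-like cells Atp1b1 took 83.2% to 91.8% of the beta subunit UMIs over 9 libraries, and in astrocyte-like cells Atp1b2 took 66.7% to 94.4%. In endothelial-like cells Atp1b3 took 36.7% to 70.6%. In microglia-like cells it took 12.1% to 47.7%, with 47.7% (40.2 to 55.4) in library 7. That was below the 60.5% of the listed microglia of the same library. The Atp1b1 share of microglia-like cells was 39.2%, 33.3% and 20.3% in libraries 7, 8 and 9. It was 21.2% of 33 UMIs in library 5 and 55.6% to 61.2% in libraries 1, 2, 3, 4 and 6, with 7 UMIs in library 6. Atp1b2 took 66.7% in library 5, 45.8% in library 9 and 13.1% to 29.6% in the others. The neuron marker list was also higher in microglia-like cells of libraries 1 to 6, as given above. The astrocyte list summed to 2939 and 1774 CPM in those of libraries 5 and 9. It was at 519 and 777 CPM in libraries 7 and 8, and at 792 to 4581 CPM in the others. The part of either list in these shares was not tested. In macrophage-like cells Atp1b3 took 16.7% to 76.9%, from 3 to 43 UMIs of the 3 genes per library. Classes seen in few libraries are given by their levels. Pituitary stem or folliculostellate-like cells, whose cluster also had Rax among its leading genes, occurred in libraries 4, 5 and 6 with Atp1b1 at 1067, 563 and 850 CPM. Pituitary endocrine-like cells of the same libraries had 124, 95.8 and 90.9 CPM of Atp1b1. Choroid plexus epithelium-like cells, the secretory lining that makes cerebrospinal fluid, were 77 cells of library 9 with 831 CPM of Atp1b1, 52.0 CPM of Atp1b2 and 210 CPM of Atp1b3.

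Over all cells of a library, Atp1b1 was at 921, 1061, 1105, 342, 306, 247, 265, 292 and 258 CPM from library 1 to library 9. Libraries 3 and 2 were highest and overlapped, library 1 followed, and library 4 came next with an interval of 324 to 361 CPM. From library 4 down to library 6, each overlapped its neighbour in the order. The ratio of library 3 to library 6 was 4.47 (4.21 to 4.76). Thinned to 500 UMIs, the share of cells with Atp1b1 ran from 6.56% to 40.04%, with 0 to 2036 cells of a library too shallow to enter. Unthinned, the share ran from 10.7% to 44.6%. The thinned 40.04% was of library 2, where 2036 of 3175 cells were left out and the unthinned share was 29.0%. Library 3, with 0 cells left out, was at 27.1% thinned and 44.6% unthinned.

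Atp1b2 was at 337, 440, 302, 99.4, 174, 42.6, 210, 297 and 258 CPM. Library 2 was highest and library 6 lowest, each clear of its neighbour, with a ratio of 10.3 (8.91 to 12.0), which was 3.49 in cells with at least 1000 UMIs. Libraries 1, 3 and 8 overlapped in turn. The thinned share of cells ran from 2.09% to 17.7%, and the unthinned share from 5.13% to 27.7%.

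Atp1b3 was at 66.3, 76.5, 68.4, 54.98, 74.0, 35.5, 109, 119 and 119 CPM. Libraries 7, 8 and 9 were highest and overlapped one another, and library 6 was lowest and clear of the rest. The ratio of library 8 to library 6 was 3.36 (2.83 to 4.01). The thinned share ran from 2.04% to 5.49%. Among 1353 genes with a mean of at least 100 CPM over the libraries, 71.2% were at least 2 times as high in the highest as in the lowest library. Atp1b3, with a mean of 80.3 CPM, was not among the genes tested. The ratio of highest to lowest library was larger than that of Atp1b1 for 430 of the 1353 genes, than that of Atp1b2 for 237 and than that of Atp1b3 for 554.

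**Figure D4:**
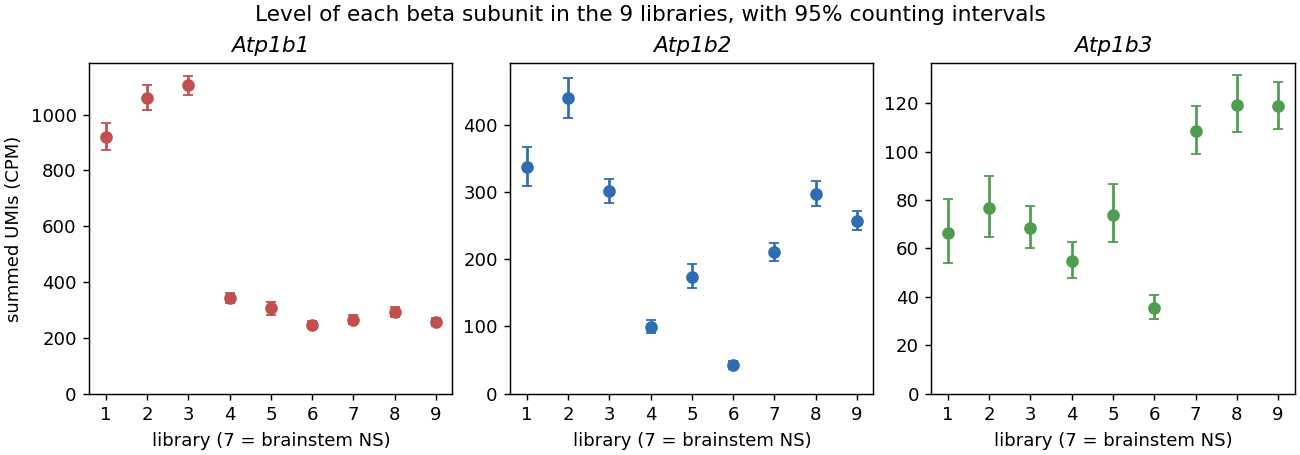
Summed UMIs of each gene in CPM (vertical axis, from 0, own range per panel) in each of the 9 libraries; bars are exact 95% Poisson intervals. Atp1b1 is highest in libraries 1 to 3, Atp1b2 lowest in library 6 at 42.6 CPM, and Atp1b3 highest in libraries 7 to 9.

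The classes that carried the UMIs were then set out by library. Neuron-like cells were 22.2%, 26.3% and 38.5% of the cells of libraries 1, 2 and 3 and carried 82.0%, 81.8% and 88.2% of their Atp1b1 UMIs. In libraries 4 and 6, pituitary stem or folliculostellate-like cells carried 41.7% and 54.5% of the Atp1b1 UMIs while making up 9.37% and 10.1% of the cells. Astrocyte-like cells carried 43.1% to 74.8% of the Atp1b2 UMIs in the libraries other than 6. The level of Atp1b2 did not follow their share of cells throughout. They were 41.0% of the cells of library 1, at 337 CPM, and 40.3% of those of library 2, at 440 CPM. They were 32.9% in library 3, at 302 CPM, and 13.95% in library 8, at 297 CPM. In library 6 they were 0.664% of the cells and carried 5.13% of its Atp1b2 UMIs. In library 7, neuron-like cells were 3.30% of the cells with 50.6% of the Atp1b1 UMIs, and astrocyte-like cells 8.98% of the cells with 49.9% of the Atp1b2 UMIs.

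**Figure D5:**
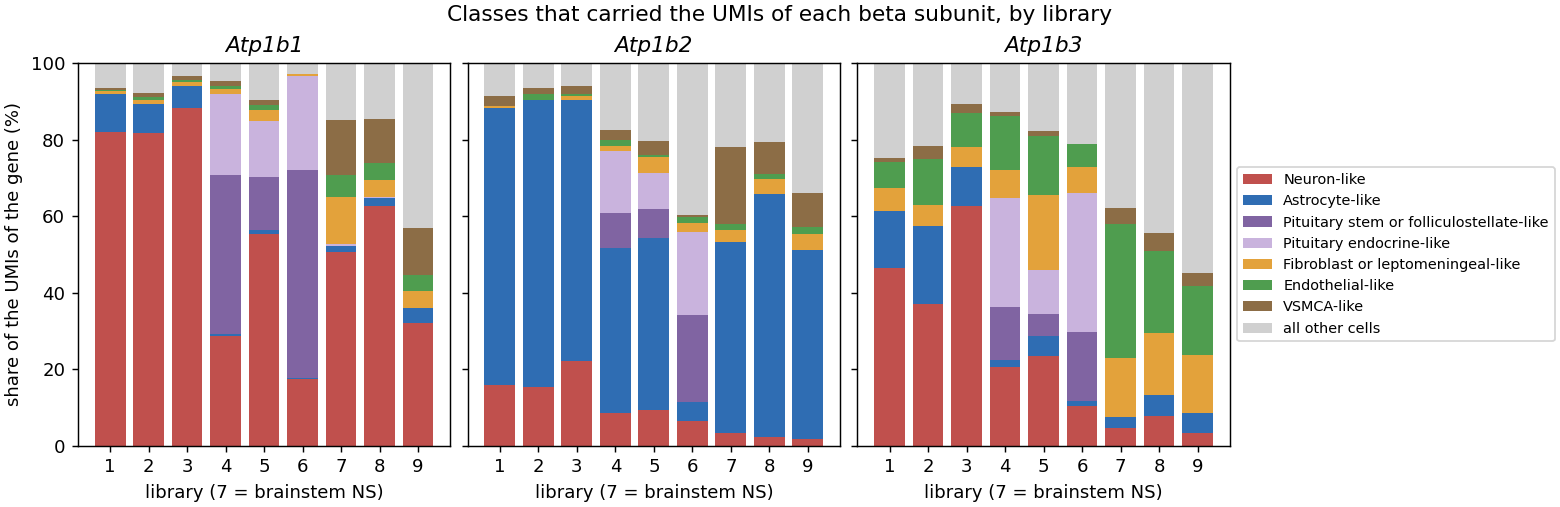
Share in percent of the UMIs of each gene (vertical axis) carried by each class in each of the 9 libraries (horizontal axis); classes not in the legend and unnamed clusters are summed in grey. Neuron-like cells carry 82.0% of the Atp1b1 UMIs of library 1 and 17.4% of those of library 6, where pituitary stem or folliculostellate-like cells carry 54.5%.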

How the data were processed

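The authors mapped 10x Chromium version 2 reads to GRCm38 with Cell Ranger 2.2.0 (R 3.5.3 is also in the submitters' processing notes) and deposited UMI counts per gene and cell, without normalization. All 29571 deposited cells were used, and no doublet caller was run. Cell types of the brainstem NS library came from the study's list, held here for 1999 cells. Members, gene lists and rules were chosen with earlier results of these data known. Named genes were the 3 members, genes of the pump and transport list with at least 20 UMIs, the 5 genes most like each member, and genes over 5% of a library's UMIs. Some genes that these rules select are not reported here. Marker genes and genes named for a zero or a label check were added after their values had been seen.

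For clustering, each cell was brought to a total of 10000 and logged. Clusters came from 2000 variable genes without the pump genes, 13 principal components, 20 neighbours and Leiden resolution 1. A cluster was named where at least 3 markers were 2 times as high as in other cells and present in 10% of its cells or more. A cluster with 2 or more leading markers of another class stayed unnamed, a rule added after the first clusters had been seen. Some HbVC-like and microglia-like clusters also had ependymal or endothelial genes among their leading genes. With 1 library per region and group there was no test. Thinning drew 500 UMIs per cell and left out shallower cells. The 2-fold rule and the likeness ranking were tested on simulated data. The software was Python 3.11.15 with numpy 2.4.6, scipy 1.17.1 and scikit-learn 1.9.0. Graphs used leidenalg 0.10.2 on igraph 0.11.9. Plots used matplotlib 3.10.9.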

Additional observations from a re-analysis of the deposited data

How the results depend on the processing

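No ratio changed direction under any alternative run. The ratios between libraries, kept to the pairs highest and lowest on the full total, moved beyond their counting intervals under every alternative. With at least 1000 UMIs per cell they were 5.41 for Atp1b1, 3.49 for Atp1b2 and 4.30 for Atp1b3. With a total that leaves out mitochondrial, hemoglobin and dominant genes (Gh and Malat1) they were 3.14, 7.29 and 2.62, and as a mean over cells 3.60, 14.7 and 2.82. With that reduced total, library 9 was the lowest for Atp1b1 and the highest for Atp1b3, and the ratios of highest to lowest were then 3.77 and 2.66. Between cell types, the ratio of astrocytes to pericytes for Atp1b2 was 5.54 with at least 1000 UMIs per cell, and the cause was not tested. Leaving out the cell with the most UMIs was chosen after seeing the data. The other ratios between types stayed within their intervals. The other alternatives for the class ratios were Leiden resolution 0.5, leaving out the 5% of cells with the most UMIs, and subtracting free RNA. They gave 4.42 to 5.29 for Atp1b1, 4.21 to 5.67 for Atp1b2 and 1.91 to 2.13 for Atp1b3. With free RNA subtracted the ratios were 5.29, 5.67 and 2.01. Leaving out each library in turn gave class ratios of 3.94 to 5.40 for Atp1b1, 4.84 to 5.31 for Atp1b2 and 1.78 to 2.09 for Atp1b3. At least 1000 UMIs per cell gave no class ratio, since too few libraries kept 20 cells of both classes, and named clusters gave no ratio for Atp1b1 or Atp1b3 between listed types. With 1 CPM added in place of 10, 4 of the 5 genes given as most like Atp1b1, all 4 given for Atp1b2 and 4 of the 5 given for Atp1b3 were still on the list. No paired analysis was possible because each group has 1 library and 8 libraries have no group. Of the 11 types, 5 rest on 20 UMIs or fewer for Atp1b1, 6 for Atp1b2 and 7 for Atp1b3.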
